A study of Mus musculus with 12 samples.

Results

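The genes described here are 7 genes of the GABA pathway, taken by their gene symbols from the exon arrays of newborn mouse brains with and without the kinase KIS. They are Gad1 and Gad2 (synthesis of GABA), Slc32a1 (loading of synaptic vesicles), Abat (breakdown) and the plasma membrane transporters Slc6a11, Slc6a12 and Slc6a13. They are 7 of 17550 gene symbols on the arrays, and all 7 entered the tests together with the other genes, 17279 in all. No measured value was used to choose them, but the choice was made with results of these data known. Total RNA of whole brains of newborn females was measured on Affymetrix exon arrays for the mouse (version 1.0 ST), each brain on its own array. There were 6 wildtype (KIS +/+) and 6 KIS-ko (KIS -/-) brains, and each of 6 litters gave 1 brain of each genotype. The KIS knockout is present in the whole animal, and the line had been backcrossed to C57BL6/N. KIS, encoded by Uhmk1, is a serine/threonine kinase that phosphorylates the splicing factor SF1. The comparison asks which transcripts differ in level when the kinase is missing in the developing brain.

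GABA is the main inhibitory transmitter of the adult brain, and in the newborn brain it depolarizes many immature neurons. It is made from glutamate by the glutamate decarboxylases encoded by Gad1 and Gad2, packed into synaptic vesicles by the vesicular inhibitory amino acid transporter (Slc32a1) and degraded in mitochondria by GABA transaminase (Abat). The transporters of the Slc6 family take it up from the extracellular space together with sodium and chloride. Of the 3 studied here, Slc6a11 is known as a transporter of astrocytes, whereas Slc6a12, which also carries betaine, and Slc6a13 are known mainly from the meninges, vessels and peripheral organs. The neuronal plasma membrane transport of GABA was not analysed here, so that the neuronal members are the 2 decarboxylases and the vesicular transporter.

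The 250 bases before annotated transcription starts are shown for both decarboxylases, as the pair of enzymes of 1 reaction, and for the first listed starts of Slc6a13 and Slc6a12, as neighbours on chromosome 6 whose array values varied together. They were taken from RefSeq on GRCm38.p6, plus strand, and CG dinucleotides are in capitals. The windows are chr2:70561879-70562128 for Gad1, chr2:22622077-22622326 for Gad2, chr6:121300038-121300287 for Slc6a13 and chr6:121342324-121342573 for Slc6a12.
Gad1: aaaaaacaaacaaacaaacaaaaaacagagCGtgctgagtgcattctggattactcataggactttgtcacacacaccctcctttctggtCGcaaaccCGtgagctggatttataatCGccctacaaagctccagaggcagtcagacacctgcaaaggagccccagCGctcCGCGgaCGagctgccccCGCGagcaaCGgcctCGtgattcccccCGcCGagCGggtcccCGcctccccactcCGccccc
Gad2: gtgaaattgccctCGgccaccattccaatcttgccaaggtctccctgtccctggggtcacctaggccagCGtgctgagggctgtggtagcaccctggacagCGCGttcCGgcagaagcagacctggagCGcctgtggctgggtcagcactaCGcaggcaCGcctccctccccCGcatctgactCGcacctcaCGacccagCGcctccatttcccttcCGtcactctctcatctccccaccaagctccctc
Slc6a13: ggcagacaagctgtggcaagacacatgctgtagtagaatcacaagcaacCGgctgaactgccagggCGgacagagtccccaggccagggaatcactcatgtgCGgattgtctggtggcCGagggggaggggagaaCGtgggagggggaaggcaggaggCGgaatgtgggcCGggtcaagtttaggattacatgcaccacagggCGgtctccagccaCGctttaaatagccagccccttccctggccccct
Slc6a12: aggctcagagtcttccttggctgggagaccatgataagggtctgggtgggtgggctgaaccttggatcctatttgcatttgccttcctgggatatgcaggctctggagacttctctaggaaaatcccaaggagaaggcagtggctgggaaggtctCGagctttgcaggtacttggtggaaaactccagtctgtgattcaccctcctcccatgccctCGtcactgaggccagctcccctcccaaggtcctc
These windows held 17, 13, 9 and 2 CG dinucleotides in the order printed, against a median of 6 over 32851 such windows. The windows of Slc32a1 and Slc6a11, which are not printed, held 12 and 25. Slc6a12 has 5 listed starts with 2 to 5 CG dinucleotides each, and Slc6a13 has 3 with 9, 6 and 2. Thus the first window of Slc6a12 had fewer CG dinucleotides than the median window, and those of the decarboxylases, the vesicular transporter, Slc6a11 and the first start of Slc6a13 had more. Motifs were searched as exact letters on both strands. TATAAA was found in the window of Gad1 and in 12.4% of all windows. GGGCGG was found in Gad1, Slc6a11 and the first start of Slc6a13, and in 32.7% of all windows. CCAAT was found in Gad2 and the second start of Slc6a13, and in 33.9% of all windows. TAATTA and CACGTG, found in 4.84% and 6.02% of all windows, were in none of the 12 windows of the 6 genes with an entry. The arrays measured transcripts and not these windows, and the motif matches are a description of letters only.

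The signal that the authors deposited for each probeset (a set of short probes in 1 exon or part of it) is linear. A gene value here is the mean over the probesets of a gene of log2(signal + 16), a scale on which changes of dim genes are understated. Medians of the 12 arrays lay between 460 and 526, and any 2 arrays correlated at 0.977 to 0.990 on the log2 scale. Uhmk1, the targeted gene, was low on every array labelled KIS-ko. Its gene value was 8.85 ± 0.15 (SD, n = 6) there and 10.97 ± 0.057 (SD, n = 6) on the wildtype arrays, a log2 difference of -2.11 (standard error 0.068, limma adjusted p = 2.9e-07). In these bulk samples fewer cells of a type and less RNA per cell cannot be told apart.

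The 7 genes were covered by 116 probesets, and all of them passed the filter on relative standard deviation. Probesets in introns serve as background controls, with a median signal of 114 and a 95th percentile of 713, and 98 of the 116 were brighter than the latter. Gad1 (chromosome 2, 70401826 to 70440033 in the positions of the deposited table, whose genome build is not given in the sources used here) had 20 of 20 probesets above this limit. Gad2 (chromosome 2, 22478106 to 22546408) had 18 of 19, and Slc32a1 (chromosome 2, 158436766 to 158441356) had 6 of 8. Abat (chromosome 16, 8513600 to 8621316) had 19 of 19 and Slc6a11 (chromosome 6, 114081245 to 114198907) had 17 of 17. Slc6a13 (chromosome 6, 121252797 to 121287649) had 16 of 17. Slc6a12 (chromosome 6, 121296722 to 121315712), which begins 9072 bases after the last probeset of Slc6a13, had only 2 of 16. Its median probeset signal was 364, between the median and the 95th percentile of the intron controls, so that it was the one gene of the pathway measured near background. All 7 genes are listed on the plus strand. The table marks 95 of the 116 probesets as matching 1 place in the transcriptome, but only 8 of 20 for Gad1.

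**Figure D1:**
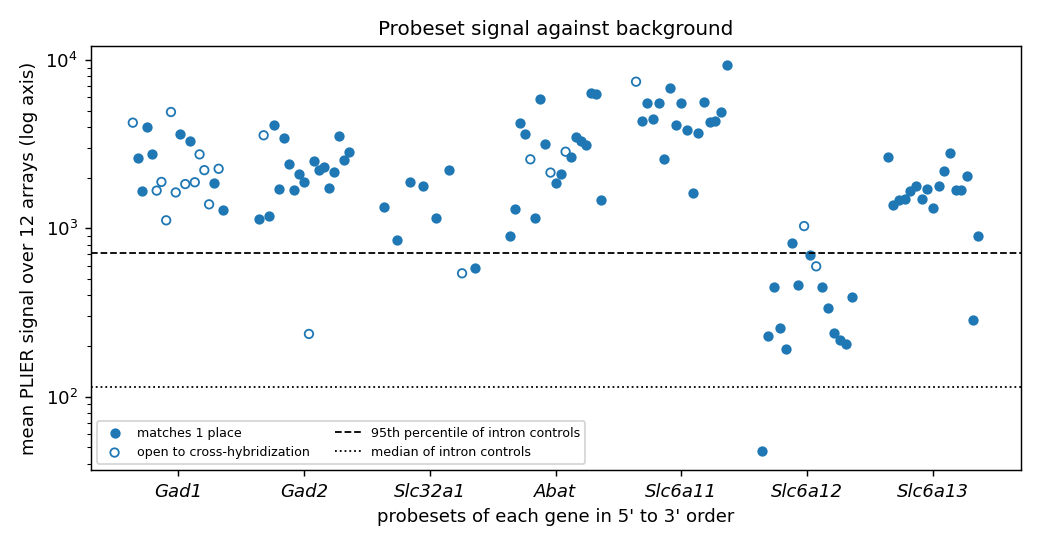
Mean PLIER signal over the 12 arrays (log axis) of each probeset of the 7 genes, in 5′ to 3′ order within a gene. Filled points match 1 place, open points are open to cross-hybridization, and the lines give the median (114) and the 95th percentile (713) of the intron controls. Most probesets of Slc6a12 lie between the lines, and nearly all of those of the other genes lie above the upper one.

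In KIS-ko brains all 7 genes had a lower mean than in wildtype brains, by 0.05 to 0.18 on the log2 scale, but 69.8% of all genes tested were lower as well. None of the 7 passed the adjusted threshold of 0.05 (limma with the litter as a block, Benjamini-Hochberg over all genes, adjusted p from 0.685 to 0.718), which 0.00579% of all genes passed, namely Uhmk1. At an unadjusted p of 0.05 limma called 1 of the 7, Slc6a12, against 6.16% of all genes. Over the 7 genes the median log2 difference was -0.09, beside -0.04 over all genes. The groups of arrays overlapped for each of the 7 genes, as they did for nearly all genes (0.208% did not overlap). The medians of the arrays themselves were lower in the KIS-ko brain in 5 of 6 litters, with log2 differences of -0.07, -0.13, -0.03, 0.10, -0.04 and -0.17 in litters 1 to 6. In the same litters 6, 7, 4, 2, 6 and 7 of the 7 genes were lower in the KIS-ko brain. Thus the number of lower genes was smallest in litter 4, the litter whose KIS-ko array had the higher median. When each array was centred on its median, 6 of the 7 genes remained lower, against 38.4% of all genes. Their median difference was then -0.03, with 0.02 for all genes, and Gad2 moved to 0.00.

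**Figure D2:**
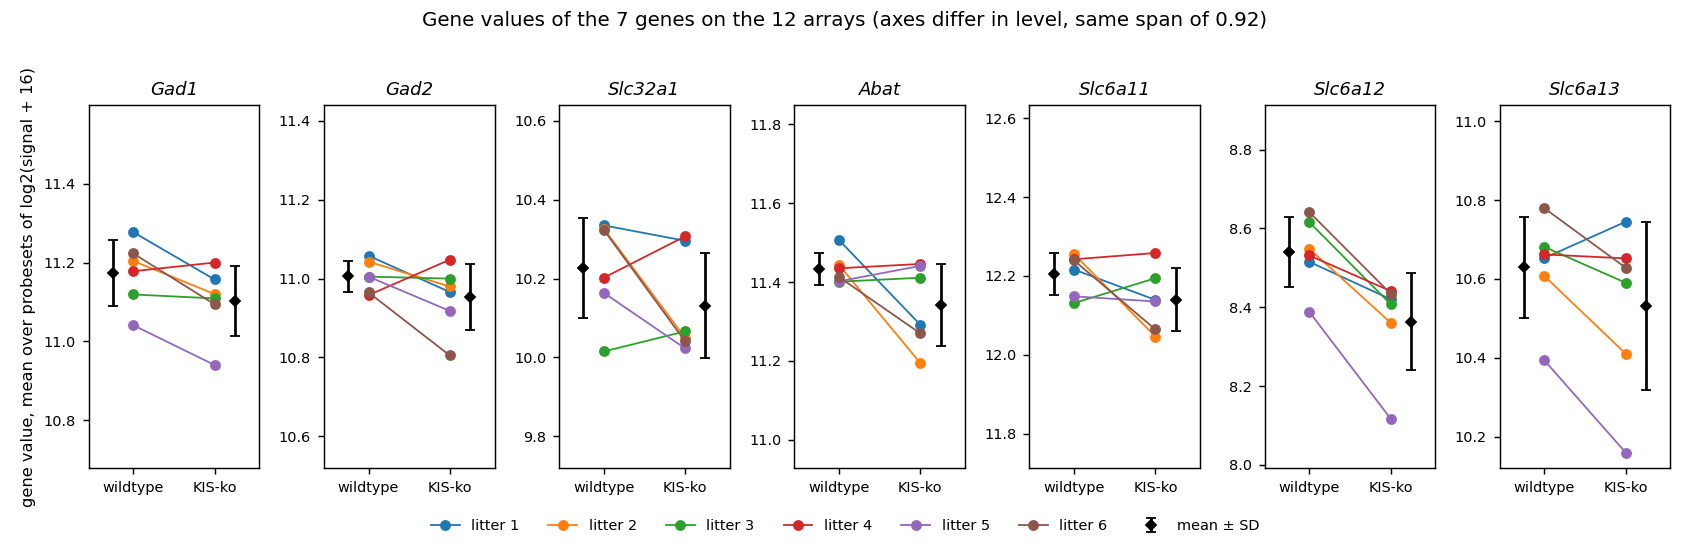
Gene values (mean over probesets of log2(signal + 16)) of the 7 genes on the 12 arrays, with littermates joined by a line and the mean ± SD of each genotype beside them (n = 6). Levels of different genes are not comparable. The lines of Slc6a12 go down in 6 of 6 litters, and those of the other genes in 3 to 5.

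**Figure D3:**
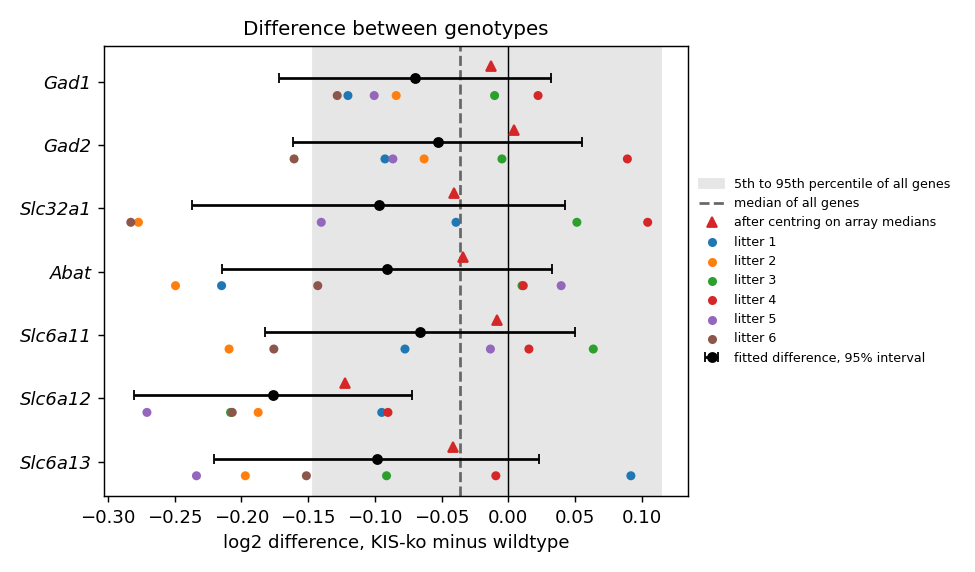
Log2 difference (KIS-ko minus wildtype) of the 7 genes: black points and bars give the limma estimate with its 95% interval, coloured points the 6 litters and red triangles the estimate after centring. The grey band spans the 5th to 95th percentile of all genes and the dashed line their median. The interval of Slc6a12 (-0.28 to -0.07) is the only one of the 7 that does not reach 0.

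The decarboxylases differed by less than 0.1 on the log2 scale between the genotypes, and neither difference passed the test. Gad1, the enzyme that supplies most of the GABA of the brain, had gene values of 11.04 to 11.28 (median 11.19) on the wildtype arrays. On the KIS-ko arrays they were 10.94 to 11.20 (median 11.12). The ranges overlapped, and only the KIS-ko array of litter 5 lay below all wildtype arrays. The log2 difference was -0.07 (standard error 0.046, limma adjusted p = 0.685), and -0.01 after centring. It was negative in 5 of 6 litters (p = 0.0938 by the exact test that permutes the signs of the 6 litters, two-sided here and below). Gad2, whose product is enriched at nerve terminals, had values of 10.96 to 11.06 (median 11.01) in wildtype and 10.80 to 11.05 (median 10.97) in KIS-ko brains. Here 2 KIS-ko arrays, those of litters 5 and 6, lay below all wildtype arrays. Gad2 differed by -0.05 on the log2 scale (standard error 0.049, limma adjusted p = 0.718) and was lower in 5 of 6 litters (exact permutation of signs, p = 0.188). The 95% interval reached from -0.16 to 0.06 for Gad2 and from -0.17 to 0.03 for Gad1. The difference of Gad2 was -0.03 without litter 6, -0.08 without litter 4 and -0.10 with the median over probesets. Over the 12 centred arrays the 2 decarboxylases did not vary alike (r = -0.26, a description over arrays of 6 litters).

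Slc32a1, the vesicular transporter shared by GABAergic and glycinergic neurons, had gene values of 10.01 to 10.34 (median 10.26) in wildtype and 10.02 to 10.31 (median 10.06) in KIS-ko brains. The wildtype array of litter 3 was as low as the KIS-ko arrays, and the KIS-ko arrays of litters 1 and 4 were as high as the wildtype ones. Its log2 difference was -0.10 (standard error 0.063, limma adjusted p = 0.685), with litter values from -0.28 to 0.10. It was lower in 4 of 6 litters (exact permutation of signs, p = 0.25). Its interval, from -0.24 to 0.04, was the widest of the 7. The difference was -0.06 without litter 2 or litter 6 and -0.04 after centring.

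Abat, which removes GABA by transamination and is expressed in neurons and astrocytes, had values of 11.40 to 11.51 (median 11.42) in wildtype and 11.19 to 11.45 (median 11.35) in KIS-ko brains. The 6 wildtype arrays were close together, whereas the KIS-ko arrays of litters 1, 2 and 6 lay below all of them and those of litters 3, 4 and 5 did not. Abat differed by -0.09 on the log2 scale (standard error 0.056, limma adjusted p = 0.685). It was lower in 3 of 6 litters (exact permutation of signs, p = 0.25). The difference was -0.06 without litter 2 and -0.03 after centring.

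Slc6a11, the astrocytic transporter, had values of 12.13 to 12.26 (median 12.23) in wildtype and 12.05 to 12.26 (median 12.14) in KIS-ko brains. The KIS-ko arrays of litters 2 and 6 lay below all wildtype arrays, and that of litter 4 was, by a small margin, the highest of the 12. Slc6a11 differed by -0.07 on the log2 scale (standard error 0.052, limma adjusted p = 0.699), by -0.04 without litter 2 and by -0.01 after centring. It was lower in 4 of 6 litters (exact permutation of signs, p = 0.25). Abat and Slc6a11 varied together over the 12 centred arrays (r = 0.77).

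Slc6a12, the betaine and GABA transporter, had the lower value in the KIS-ko brain of every pair. Its gene values were 8.39 to 8.64 (median 8.54) in wildtype and 8.12 to 8.44 (median 8.41) in KIS-ko brains. Of the wildtype arrays 5 lay above all KIS-ko arrays, and the overlap came from the wildtype array of litter 5 alone. The log2 difference was -0.18 (standard error 0.047, 95% interval -0.28 to -0.07), lower in 6 of 6 litters, with litter values from -0.27 to -0.09. A gene was lower in 6 of 6 litters in 1.6% of cases, and 2.33% of all genes had a more negative difference. The limma p was 0.00355 before adjustment, which ranked 81 among all genes, and 0.685 after it. The exact permutation of signs over the 6 litters gave p = 0.03125, the smallest that 6 pairs allow. After centring the difference was -0.12 (standard error 0.040), again lower in 6 of 6 litters. Slc6a12 was measured near background, as described above. Its 2 probesets above the 95th percentile of the intron controls alone gave -0.15 (standard error 0.043, limma adjusted p = 0.748). The median over its probesets gave -0.15 (standard error 0.088, limma adjusted p = 0.782), which no longer passed the unadjusted threshold.

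Slc6a13, its neighbour, had values of 10.39 to 10.78 (median 10.66) in wildtype and 10.16 to 10.75 (median 10.61) in KIS-ko brains. Both arrays of litter 5 were the lowest of their genotype, and in litter 1 the KIS-ko array was the higher one. Slc6a13 differed by -0.10 on the log2 scale (standard error 0.055, limma adjusted p = 0.685) and was lower in 5 of 6 litters (exact permutation of signs, p = 0.125). After centring the difference was -0.04. Slc6a12 and Slc6a13 varied together over the 12 centred arrays (r = 0.75).

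The measure of the methods, a mean over probesets of the KIS-ko over wildtype ratios weighted by their precision, gave the same order at its ends. The fold change of Slc6a12 was 0.917 ± 0.035 (SD over 6 pairs), and that of Gad2 was 0.978 ± 0.044. By the limit of the methods, a change of at least 6%, Slc6a12 was the 1 member of the 7 counted as lower, against 8.84% of all genes. Abat (0.944 ± 0.064) and Slc6a13 (0.944 ± 0.077) were just inside the limit, followed by Slc6a11 (0.959 ± 0.067), Slc32a1 (0.961 ± 0.088) and Gad1 (0.967 ± 0.025). After centring Slc6a12 was at 0.9402 and no longer reached the limit. With 1 litter left out, the limit was reached by Abat without litter 3, 4 or 5 (0.932, 0.929 and 0.931), by Slc6a13 without litter 1 or 4 (0.910 and 0.936) and by Slc32a1 without litter 4 (0.937).

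The probesets show whether all exons of a gene moved alike. Of the 116 probesets, 105 were lower in KIS-ko brains, against 66.2% of all probesets. All probesets were lower for Abat (19 of 19), Slc6a11 (17 of 17) and Slc6a13 (17 of 17). The counts were 17 of 20 for Gad1, 15 of 19 for Gad2, 7 of 8 for Slc32a1 and 13 of 16 for Slc6a12. Probesets of 1 gene share their RNA and are not replicates. None of the 116 passed an adjusted p of 0.05 in limma, which 0.00487% of all probesets did. At the unadjusted threshold 12 were lower, against 4.72% of all probesets, and 8 of these 12 belonged to Slc6a12, 2 to Gad1 and 1 each to Slc32a1 and Abat. One probeset of Slc6a12 was higher at that threshold.

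The strongest single probeset was one of Slc6a12, at 121313248 to 121313324. Its signal was 217 to 358 on the wildtype arrays and 165 to 207 on the KIS-ko arrays, so that the genotypes did not overlap. This held for 1 of the 116 probesets, against 0.173% of all probesets. Both levels lay between the median and the 95th percentile of the intron controls. It differed by -0.57 on the log2 scale (standard error 0.12, limma adjusted p = 0.640). The next one, at 121313718 to 121313799, differed by -0.43 (standard error 0.091). In contrast the first probeset of Slc6a12, at 121296722 to 121296964, had a mean signal of only 47.6, below the median of the intron controls, and differed by 0.42 (standard error 0.16, limma adjusted p = 0.751). The 2 probesets of Slc6a12 above the 95th percentile of the intron controls differed by -0.06 (standard error 0.077) and -0.24 (standard error 0.091). Only the latter of them passed the unadjusted threshold, and it is marked as open to cross-hybridization.

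In the other genes the probesets of lowest and highest difference stood closer together. In Gad1 they were -0.19 for the last probeset (70439881 to 70440033) and 0.03 for the second (70401912 to 70401946). In Gad2 they were -0.21 (22521762 to 22521805, the only dim one) and 0.09 for the first (22478106 to 22478179). The first 3 probesets of Gad2 were higher in KIS-ko brains, by 0.07 to 0.09, and the last was lower by 0.13, and none of these 4 passed the unadjusted threshold. In Slc32a1 they were -0.32 (158441090 to 158441115, signal 540) and 0.03 for the first (158436766 to 158436831). In Abat they were -0.17 (8581992 to 8582021) and -0.03 (8603783 to 8603844). In Slc6a11 they were -0.10 (114175827 to 114175907) and -0.02 (114088917 to 114088943), the narrowest range of the 7. In Slc6a13 they were -0.18 (121287406 to 121287433, signal 284) and -0.01 (121275043 to 121275130). The lowest probesets of Gad2, Slc32a1 and Abat, and the highest of Abat, are marked as open to cross-hybridization. In Slc32a1 and in Abat this lowest probeset was the only one past the unadjusted threshold.

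The splicing index, the difference of a probeset minus that of its gene, was tested for the same 116 probesets. None passed an adjusted p of 0.05 in limma (lowest adjusted p = 0.686, for Slc6a12), against 0.000985% of all probesets. At the unadjusted threshold there were 6, of which 5 belonged to Slc6a12 and 1 to Slc32a1, against 6.11% of all probesets. The splicing index of the first probeset of Slc6a12 was 0.60 and that of the probeset at 121313248 was -0.39.

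**Figure D4:**
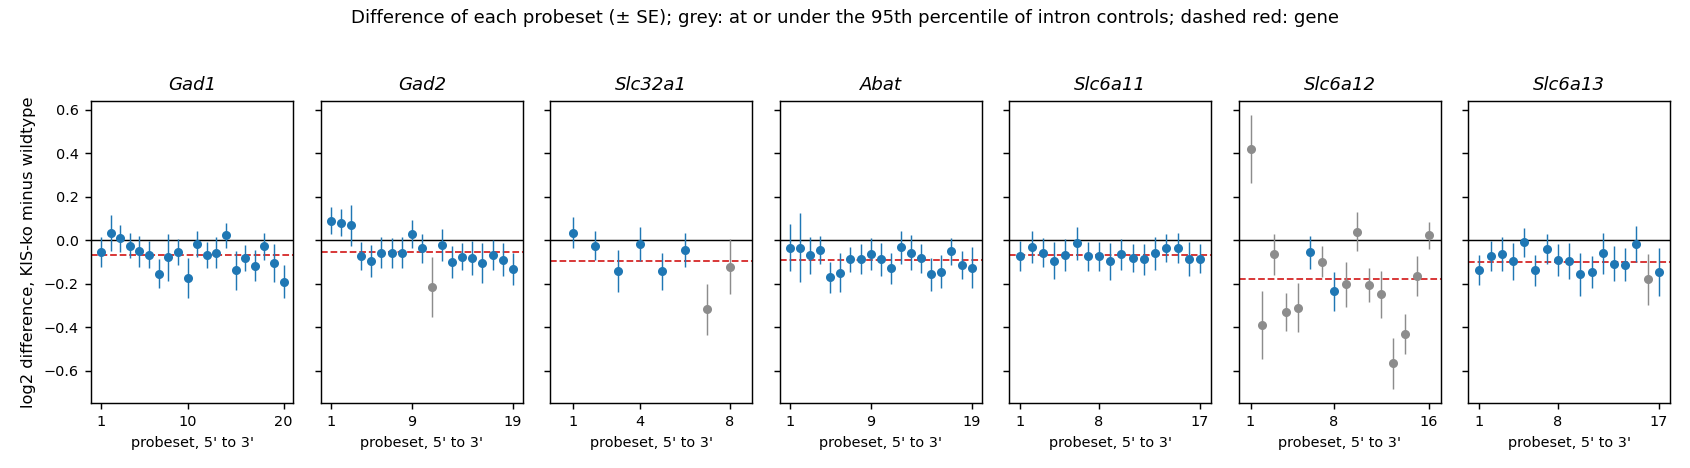
Log2 difference (KIS-ko minus wildtype, ± standard error) of each probeset in 5′ to 3′ order, with the gene difference as a dashed line. Grey points had a mean signal at or under 713, the 95th percentile of the intron controls. The probesets of Slc6a12 scatter from -0.57 to 0.42 and are mostly grey, whereas those of Slc6a11 stay between -0.10 and -0.02.

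The probesets of each gene were then split into 3 stretches of about equal number along the strand and the last was set against the first, a comparison chosen after these data were seen. All 7 genes had a difference that was lower at the 3′ end, against 58.1% of the genes with at least 6 probesets. None of the 7 passed the unadjusted threshold in limma, which 6.72% of these genes did. Without litter 4 the threshold was passed by Slc6a12 (-0.20, limma adjusted p = 0.267), by Slc32a1 (-0.18, limma adjusted p = 0.297) and by 13.1% of all these genes. The log2 difference (3′ minus 5′, KIS-ko minus wildtype) was -0.14 for Slc6a12 (standard error 0.069, limma adjusted p = 0.745) and -0.12 for Slc32a1 (standard error 0.067). It was -0.09 for Gad2, -0.05 for Gad1 and between -0.02 and -0.01 for Abat, Slc6a13 and Slc6a11. With 2 stretches in place of 3 it was -0.09 for Slc6a12 and -0.02 for Gad1, and with 3 stretches but without litter 6 it was -0.03 for Gad1. For Abat, Slc6a13 and Slc6a11 it was above 0 when litter 5 (Abat, 0.01, and Slc6a11, 0.01) or litter 6 (Slc6a13, 0.03) was left out. The median of all genes was also lower at the 3′ end in litters 5 and 6 (-0.04 and -0.05), the litters in which all 7 genes were below 0, and was higher in litter 4 (0.03), in which 2 of the 7 were below 0. The part of RNA quality in these differences was not tested.

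Of the 7 genes, Slc6a13 had the largest F value for the difference between litters (6.02), followed by Slc6a12 (3.15). The litter means of Slc6a13 ranged from 10.28 in litter 5 to 10.70 in litter 6 (limma F test over litters, adjusted p = 0.252). It was the 1 gene of the 7 past the unadjusted threshold of the litter test, against 11.3% of all genes, and at the adjusted threshold that share was 0. The litter means of Slc6a12 ranged from 8.25 in litter 5 to 8.54 in litter 6 (limma F test, adjusted p = 0.459). Gad1 was also lowest in litter 5, with a mean of 10.99, whereas Gad2 was lowest in litter 6 with 10.88.

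The differences of Slc6a11 and Slc6a12 followed those of cell type markers from litter to litter, and that of Slc6a13 did not pass the same test. Each gene was set against 1 list of markers over the 6 within-litter differences of centred values, with 7 relations in all, exact two-sided permutation tests over 720 pairings and Benjamini-Hochberg adjustment over the 7. Slc6a12 followed the mean of 17 markers of meningeal and perivascular fibroblasts, with Pearson r = 0.836 (permutation p = 0.00139, adjusted p = 0.00972) and Spearman rho = 1 (permutation p = 0.00278, adjusted p = 0.0194). Without litters 1 and 5, which lie farthest out on the list, r was 0.800. The list differed by -0.14 in litter 5, where Slc6a12 differed by -0.23, and by 0.05 in litter 1, where Slc6a12 differed by -0.02. In litters 3 and 4 Slc6a12 had the same difference, -0.18, to 2 decimals. Slc6a13 had r = 0.799 with the same list (permutation p = 0.0806, adjusted p = 0.188) and rho = 0.829 (permutation p = 0.0583, adjusted p = 0.136), and r was 0.701 without litters 1 and 5. Slc6a11 followed the mean of 12 markers of astrocytes and radial glia, with r = 0.915 (permutation p = 0.00833, adjusted p = 0.0292) and rho = 0.829 (permutation p = 0.0583, adjusted p = 0.136). Without litters 2 and 3 its r was 0.698, against 0.887 without litter 2 alone and 0.808 without litter 3 alone. Its rho did not pass the threshold. Abat had r = 0.510 with the same markers (permutation p = 0.301, adjusted p = 0.422) and rho = 0.543 (permutation p = 0.297, adjusted p = 0.416). On arrays that were not centred the relation of Slc6a12 had r = 0.862 (adjusted p = 0.0729 by the exact permutation test). With each litter left out in turn r lay between 0.801 and 0.928 for Slc6a12 and between 0.808 and 0.975 for Slc6a11. None of these passed the adjusted threshold, but with 5 litters the smallest permutation p of a Pearson r is 0.00833, which adjusts to 0.0583 where no other of the 7 relations is as low, so that the adjusted values say nothing about stability. Slc6a12 was at this smallest p without litter 3 or litter 4. The unadjusted permutation p lay between 0.00833 and 0.0750 for Slc6a12, and was above 0.05 without litter 5 or litter 6. It lay between 0.0167 and 0.150 for Slc6a11 by the same permutation test, and was above 0.05 without litter 2 or litter 3. No gene was set against any other list in this way, so these relations are not shown to be particular to 1 cell type.

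None of the relations of the neuronal genes to 11 transcription factors of GABAergic neurons passed the threshold. The values were r = 0.444 for Gad1 (permutation p = 0.435), 0.218 for Gad2 (permutation p = 0.672) and -0.669 for Slc32a1 (permutation p = 0.118), with adjusted p of 0.507, 0.672 and 0.207. On arrays that were not centred r was 0.785 for Gad1 (permutation p = 0.0556), 0.752 for Gad2 (permutation p = 0.0875) and 0.516 for Slc32a1 (permutation p = 0.286). Spearman's rho was 0.257 for Gad1 (permutation p = 0.658, adjusted p = 0.768), 0.0286 for Gad2 (permutation p = 1, adjusted p = 1) and -0.771 for Slc32a1 (permutation p = 0.103, adjusted p = 0.180). Without litters 1 and 6, r was -0.04 for Gad1, -0.15 for Gad2 and -0.95 for Slc32a1. Between litters the values were other than within them. Over the 6 litter means r was -0.595 for Slc6a12, -0.449 for Slc6a13 and 0.410 for Slc6a11, and none of these passed the threshold (permutation p from 0.213 to 0.413). Over the 12 centred arrays Slc6a12 had a median r of -0.01 with the single meningeal genes, 8 of 17 above 0, and its highest median among the marker lists was 0.27, with the astroglial genes, 9 of 12 above 0. Its median r with all genes compared was -0.10. Slc6a13 had a median r of -0.14 both with the meningeal genes, 7 of 17 above 0, and with all genes, and its highest list median was 0.25, with the genes of mural cells, the pericytes and smooth muscle of vessels, 5 of 8 above 0. Slc6a11 had a median r of 0.31 with the astroglial genes, 9 of 12 above 0, as it had with the erythroid genes, 5 of 5 above 0, and 0.34 with the genes of the oligodendrocyte lineage, 7 of 8 above 0, beside a median of 0.06 with all genes.

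**Figure D5:**
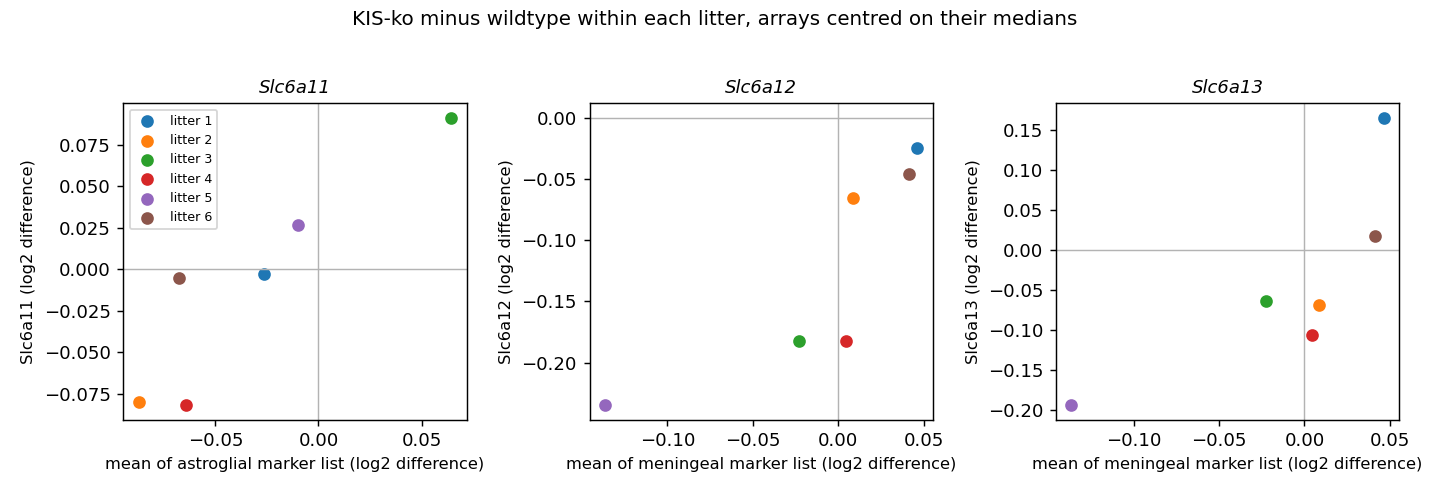
Log2 difference (KIS-ko minus wildtype, centred arrays) of Slc6a11, Slc6a12 and Slc6a13 in each of the 6 litters against that of the mean of their marker list. Slc6a12 and Slc6a13 are lowest in litter 5, where the meningeal list is lowest, and Slc6a11 is highest in litter 3, where the astroglial list is highest.

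The levels of the marker lists overlapped between the genotypes. The mean of the meningeal list lay between 9.65 and 9.82 on the wildtype arrays and between 9.63 and 9.79 on the KIS-ko arrays, and 12 of its 17 genes were above the 95th percentile of the intron controls. Of these 17 genes, 15 were lower in KIS-ko brains, 2 of them at the unadjusted threshold, with a median of -0.07. Over all genes 69.8% were lower and 6.16% passed that threshold, with a median of -0.04. The lowest was Nov (-0.17), a matricellular protein, and the highest Col1a1 (0.07), a chain of type I collagen. After centring, the median of the list was -0.02, beside 0.02 over all genes, and the difference of Slc6a12 was -0.12. The mean of the astroglial list lay between 11.01 and 11.20 in wildtype and between 10.92 and 11.11 in KIS-ko brains, with 11 of 12 genes above the controls. All 12 were lower, with a median of -0.08, from Gfap (-0.27), the intermediate filament of astrocytes and past the unadjusted threshold, to Vim (-0.02). Gfap, with a mean signal of 580, was the 1 gene of the list not above the controls. After centring, their median was -0.02 and 8 were lower, against 38.4% of all genes. The part of these cell types in the differences of the transporters was not tested.

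The 3 lists of neuronal markers had medians between 0.00 and 0.01, and between 0.06 and 0.07 after centring, when 3 of 11, 2 of 7 and 0 of 9 genes were lower in the order given below. The medians of all genes were -0.04 and, after centring, 0.02. Of all genes 69.8% were lower, and 38.4% after centring, the shares for every list of this paragraph. Of the 11 transcription factors of GABAergic neurons 5 were lower and 6 higher, with a median of 0.01, and 7 were above the controls. Of 7 peptides and calcium-binding proteins of interneurons 3 were lower, from Calb1 (-0.11) to Pvalb (0.11). Of 9 markers of glutamatergic neurons 4 were lower, from Neurod1 (-0.06) to Neurod2 (0.08), and all 9 were above the controls. No gene of these 3 lists passed the unadjusted threshold, which 6.16% of all genes did. Among the other lists, 8 of 10 endothelial genes were lower (Cldn5, -0.11, to Flt1, 0.09), as were 6 of 8 of mural cells (Rgs5, -0.16 and past the unadjusted threshold, to Kcnj8, 0.03) and 7 of 8 of the oligodendrocyte lineage (Cnp, -0.14, to Olig1, 0.01). The counts were 6 of 8 for microglia (Csf1r, -0.07, to Cx3cr1, 0.08), 3 of 8 for choroid plexus (Kl, -0.10, to Folr1, 0.06) and 1 of 6 for erythroid cells (Alas2, -0.05, to Epb4.2, 0.06). After centring, the lower genes were 4 of 10 for endothelium, 3 of 8 for mural cells, 4 of 8 for the oligodendrocyte lineage, 2 of 8 for microglia, 2 of 8 for choroid plexus and 1 of 6 for erythroid cells. Only 1 of 8 genes of microglia and 1 of 8 of choroid plexus were above the controls. No gene of any list passed an adjusted p of 0.05 in limma.

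The genes before and after GABA in metabolism were mostly lower, as were 69.8% of all genes, whose median was -0.04 and of which 6.16% passed the unadjusted threshold. Of 9 genes that supply glutamine and glutamate, all 9 were lower, with a median of -0.06, from Slc38a5 (-0.10) to Slc38a3 (-0.02), both glutamine transporters, and none passed the unadjusted threshold. Of 12 genes listed for the oxidation of succinic semialdehyde, for pyridoxal phosphate supply and for other routes to GABA, 10 were lower, with a median of -0.08. The lowest was Maob (-0.17), a monoamine oxidase of astrocytes that takes part in the synthesis of GABA from putrescine. Maob was the 1 gene lower at the unadjusted threshold. The highest was Dao (0.07), which encodes D-amino-acid oxidase and not the diamine oxidase of that synthesis. Of 15 other transporters of the Slc6 family 12 were lower, with a median of -0.07, from Slc6a20a (-0.14) to Slc6a18 (0.11). At the unadjusted threshold 1 of them was lower, Slc6a7 (-0.13). Of 4 genes of the GABA-B receptor and its auxiliary subunits 3 were lower, from Kctd12b (-0.09) to Kctd12 (0.04). Of 19 genes of synaptic vesicle loading and release 18 were lower, with a median of -0.05, from Slc18a3 (-0.10) to Slc18a1 (0.06), and none passed the unadjusted threshold. After centring, the medians of these 5 lists lay between -0.02 and 0.01, beside 0.02 over all genes. The lower genes were then 4 of 9, 9 of 12, 8 of 15, 2 of 4 and 6 of 19 in the order given, against 38.4% of all genes. In the same order 9, 6, 8, 3 and 15 genes were above the 95th percentile of the intron controls. Maob, Dao, Slc6a18, Kctd12b, Slc18a3 and Slc18a1 were not.

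The genes most like each of the 7 were named by Pearson's r over the 12 centred arrays, among 15373 genes above the median intron control, as a description with no test. For Gad1 they were Matk (r = 0.854), Styk1, Ccdc28a, Irak1 and Arhgap24. For Gad2 they were Acbd6 (r = 0.935), Esf1, Chmp7, Slc7a6os and Capn6. For Slc32a1 they were Prdx5 (r = 0.901), Elof1, 9930104L06Rik and Tmbim6. For Abat they were Pag1 (r = 0.929), Zfp36l2, Galntl1, Crabp1 and Gm4708. For Slc6a11 they were Atp1b2 (r = 0.904), Tlx3, Apoe, Ttyh1 and Gas6. For Slc6a12 they were Snx14 (r = 0.851), Rbm45, Ddx4, Arhgap26 and Zmat1. For Slc6a13 they were Tardbp (r = 0.957), Slc26a7 (r = 0.940), Atp2c1, Etfb and Exd2. None of the 7 was among the 5 genes most like another. With so many genes and 12 arrays the order is loose, and 0 to 2 of the 5 names were shared when Spearman's rho was used.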

How the data were processed

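With the Affymetrix Expression Console the authors normalized exon values by quantiles and estimated probeset signals with PLIER. The intensity they deposited is this signal on a linear scale. Main probesets that carry a gene symbol were used, unless their relative standard deviation exceeded 0.4 in 1 of the genotypes, the limit of the methods, and 205469 of 221417 were kept. In limma 3.58.1 (R 4.3.3) a gene was tested by its log2(signal + 16) averaged over probesets, litters entering as a block, and p-values were adjusted over all 17279 genes (Benjamini-Hochberg, threshold 0.05). Probesets and splicing indexes (genes with at least 3 probesets) were tested likewise. The gene fit was tested on simulated data. Precision is limited by the number of arrays (12).

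The members and the lists were chosen with earlier results of these data known. The rule for named genes took all 7 members, Uhmk1, the probesets of largest and smallest difference, the 5 genes most like each member and the extremes of 16 marker and pathway lists. Some genes under this rule are not reported here. The labels give each pair of arrays 1 litter, which is the pairing used. Deviations from the genotype mean correlated between littermates at 0.27, -0.06, 0.14, -0.11, 0.47 and -0.11 in litters 1 to 6. Between brains of different litters the mean correlation was -0.02. Alternatives were no block, other pseudocounts, filters, scalings and summaries, and each litter left out. Python 3.11.15, scipy 1.17.1 and matplotlib 3.10.9 were used. RefSeq starts were matched for 6 genes (not Abat).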

Additional observations from a re-analysis of the deposited data

Results flagged for a closer look

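Of the 14 groups of 6 arrays (7 genes, 2 genotypes), 1 held an array far from the others. The KIS-ko array of litter 5 had a gene value of 8.12 for Slc6a12, and the nearest other KIS-ko array had 8.36, a gap of 0.752 of the range of the group. Chance flags about 1 in 20 such groups. Without litter 5 the log2 difference of Slc6a12 was -0.16 (standard error 0.054, limma adjusted p = 0.724).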

How the results depend on the processing

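No member passed an adjusted p of 0.05 in limma in the reported setting or under any of the 17 alternatives. The sign of the difference was negative in 17 of 17 alternatives for 6 genes and in 16 for Gad2, which was 0.0040 after centring. Slc6a12 stayed between -0.19 and -0.12 and had an unadjusted p under 0.05 in 16 of 17 alternatives, the exception being the median over probesets (-0.15, limma adjusted p = 0.782). Slc6a13 passed the unadjusted threshold in 1 alternative, without litter 1. With each litter left out the sizes ranged from -0.09 to -0.06 for Gad1, from -0.08 to -0.03 for Gad2, from -0.14 to -0.06 for Slc32a1, from -0.12 to -0.06 for Abat, from -0.09 to -0.04 for Slc6a11 and from -0.14 to -0.07 for Slc6a13. With dim probesets left out Slc32a1 was at -0.06, and with probesets matching 1 place only Gad1 was at -0.04 and Slc32a1 at -0.07. Quantile-normalized again, the 6 genes other than Slc6a12 lay between -0.06 and -0.02. Without litter 4 the number of all genes at the unadjusted threshold moved from 1065 to 3913, and the lowest adjusted p of the 7 genes was 0.125, for Slc6a12. Without the litter as a block, the difference of Slc6a12 was -0.18 (standard error 0.062, limma adjusted p = 0.747), and the fit without the block changed no call. The fold change of Gad1 by the methods was 0.997 after centring.

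Over litter means the relation to the marker list turned to -0.370 for Gad1, 0.549 for Slc32a1, -0.595 for Slc6a12 and -0.449 for Slc6a13, and was 0.410 for Slc6a11. On arrays that were not centred it was 0.516 for Slc32a1 and 0.862 for Slc6a12 (permutation p = 0.0208, adjusted p = 0.0729, past the threshold no longer). With each litter left out in turn it ranged from -0.0711 to 0.479 for Gad2, from 0.808 to 0.975 for Slc6a11 and from 0.801 to 0.928 for Slc6a12. With a litter left out neither of the latter passed the adjusted threshold, which 5 litters do not allow for a lone relation (smallest permutation p = 0.00833, adjusted p = 0.0583). The unadjusted permutation p was above 0.05 without litter 2 or 3 for Slc6a11 and without litter 5 or 6 for Slc6a12. With each litter left out, the 3′ minus 5′ difference ranged from -0.0622 to 0.0118 for Abat, from -0.0194 to 0.00873 for Slc6a11 and from -0.0394 to 0.0273 for Slc6a13. The cause of these changes was not tested. The signal of Slc6a12, near that of the intron controls, limits its value.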
